A study of Mus musculus with 6 samples.

Results

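The pyruvate dehydrogenase kinase genes Pdk1, Pdk2, Pdk3 and Pdk4 and the phosphatase genes Pdp1 and Pdp2 were followed in isolated mouse heart cells. They were chosen by name, through the probe sets annotated to 1 of these genes only, and all 6 were measured among 18193 genes. Pdk1 had 4 such probe sets, Pdp1 had 2, and the other members 1 each. For genes with several, the brightest one on average over the arrays represents the gene. The data are total RNA from 3 groups of C57BL/6J cells, hybridised to 2 one-colour Affymetrix arrays per group. Neonatal cardiomyocytes and neonatal cardiac fibroblasts came from hearts of male and female animals at day 1 after birth and were parted by density in Percoll. Adult cardiomyocytes came from male hearts at 8 weeks and were released by Langendorff perfusion, which passes enzyme through the coronary vessels. Age, sex and isolation therefore differ together between the adult and neonatal groups, and their parts cannot be told apart. Between adult cardiomyocytes and neonatal fibroblasts cell type differs as well, and it cannot be told apart from the other 3 in that comparison. All cells met trypsin and collagenase. The labels describe both fresh use and a plating step checked with TMRM, a dye of active mitochondria. The labels do not say that arrays of one group had separate litters or preparations behind them, and the p-values then reflect array-to-array spread only, which may be technical.

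Pyruvate dehydrogenase is the mitochondrial enzyme complex that turns pyruvate into acetyl-CoA and so commits glucose carbon to oxidation. Kinases of the Pdk family phosphorylate its E1 alpha subunit and switch it off, and the Pdp phosphatases remove the phosphate and switch it on. The heart moves from glucose and lactate before birth to fatty acids afterwards, and the kinases are known as a brake on glucose use when fat is burned. The comparisons ask in which cell type each kinase and phosphatase transcript was abundant, and how its level differed between newborn and adult muscle cells.

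Values are log2 RMA values, a background-corrected and quantile-normalized scale on which 1 unit is a 2-fold difference. Means carry the SD of n = 2 arrays, and differences the standard error (SE) that limma gives. A gene is said to have risen or fallen where its limma p was under 0.05 after Benjamini-Hochberg adjustment across the 18193 genes. With 2 arrays against 2, an exact permutation test of a single gene cannot give a two-sided p below 0.333, so none is used. RMA levels of different probe sets are not compared with each other.

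For both neonatal replicate 1 arrays the title contradicts the source name, cell type and description, which were followed here. The median of 12 cardiomyocyte markers reached 14.02 and 13.54 in neonatal cardiomyocytes, and 13.99 and 13.97 in adult ones. It was 7.56 on fibroblast replicate 1 and 10.78 on fibroblast replicate 2. Summed over the list, these markers reached 17.27 to 17.54 on the log2 scale in the cardiomyocyte groups, and 13.05 and 15.28 on the fibroblast arrays. Ryr2 measured 4.87 on fibroblast replicate 1 against 7.67 on replicate 2, and Tnni3 6.07 against 10.86. Tnnt2 and Actc1 were also lower on fibroblast replicate 1 than on replicate 2, at 11.89 against 13.50 and 10.64 against 12.71. Their replicate 1 values were above those of Ryr2 and Tnni3. The 12 fibroblast markers had medians of 12.83 and 12.12 on the fibroblast arrays. In cardiomyocytes these medians were 10.28 and 9.94 at the neonatal and 8.24 and 9.81 at the adult age. The 12 leukocyte markers had medians of 11.84 and 9.07 on the fibroblast arrays, between 5.25 and 6.75 on the neonatal and between 6.69 and 8.01 on the adult cardiomyocyte arrays. The source names therefore match the markers on replicate 1. Both fibroblast arrays gave signal for cardiomyocyte markers, with the higher median on replicate 2. In such mixed preparations, fewer cells of a type and less RNA per cell cannot be told apart. Between adult cardiomyocytes and fibroblasts, the marker genes called were 8 of 12 cardiomyocyte and 3 of 10 endothelial genes that rose, 6 of 12 fibroblast, 1 of 12 leukocyte and 3 of 8 epicardial genes that fell, 1 of 10 smooth muscle genes that rose and 2 that fell, and 1 of 6 fat cell genes that rose. For 4 erythroid and 5 Schwann cell genes limma called 0, with 1 and 3 at unadjusted p under 0.05. Correlations between the arrays of a group lay between 0.957 and 0.974.

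The upstream sequences of Pdk4, Pdk3 and Pdp2 are shown because these members had 3 different patterns: highest in both cardiomyocyte groups, lowest in adult cells, and highest in adult cells alone. Each line gives the 250 bases before the RefSeq gene start in build GRCm38.p6, 5′ to 3′ on the gene's strand. Capitals mark matches, on either strand, to CCAAT, to the GC box GGGCGG, to ACGTG (the core of the hypoxia response element) and to the E-box CACGTG, which contains ACGTG; a match on the opposite strand appears as its reverse complement.
Pdk4 (chr6:5496279-5496528, minus strand): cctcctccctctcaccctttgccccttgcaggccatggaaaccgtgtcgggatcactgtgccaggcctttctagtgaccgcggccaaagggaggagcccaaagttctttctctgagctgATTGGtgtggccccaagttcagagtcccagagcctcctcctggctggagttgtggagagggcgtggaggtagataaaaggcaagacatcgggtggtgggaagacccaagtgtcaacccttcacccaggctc
Pdk3 (chrX:93832151-93832400, minus strand): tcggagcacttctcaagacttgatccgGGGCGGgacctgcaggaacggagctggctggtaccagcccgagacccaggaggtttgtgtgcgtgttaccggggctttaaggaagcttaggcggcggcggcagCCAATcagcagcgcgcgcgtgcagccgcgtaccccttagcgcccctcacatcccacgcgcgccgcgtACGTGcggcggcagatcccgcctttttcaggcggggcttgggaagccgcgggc
Pdp2 (chr8:104591222-104591471, plus strand): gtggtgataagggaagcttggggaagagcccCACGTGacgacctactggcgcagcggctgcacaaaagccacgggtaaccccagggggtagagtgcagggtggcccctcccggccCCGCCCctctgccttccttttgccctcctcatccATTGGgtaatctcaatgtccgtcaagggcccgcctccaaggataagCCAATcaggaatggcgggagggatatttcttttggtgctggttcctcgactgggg
The table held such windows for 5 of the 6 members, with 2 alternative starts for Pdk1 and for Pdk2; Pdp1 had none. CCAAT was found once upstream of Pdk4 and of Pdk3, 2 times upstream of Pdp2, and 3 times upstream of the first Pdk2 start, against 33.8% of 32851 windows with at least 1 match. ACGTG was found upstream of Pdk3, Pdp2 and Pdk2, against 16.6% of all windows, and inside a full CACGTG in the last pair, against 6.02%. GGGCGG was found upstream of Pdk3, Pdp2 and the first Pdk1 start, against 32.7%. The nuclear receptor motif AGGTCA, present in 14% of windows, and TATAAA, in 12.4%, had no match in any of these member windows. These matches describe the printed letters and are no evidence of binding.

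**Figure D1:**
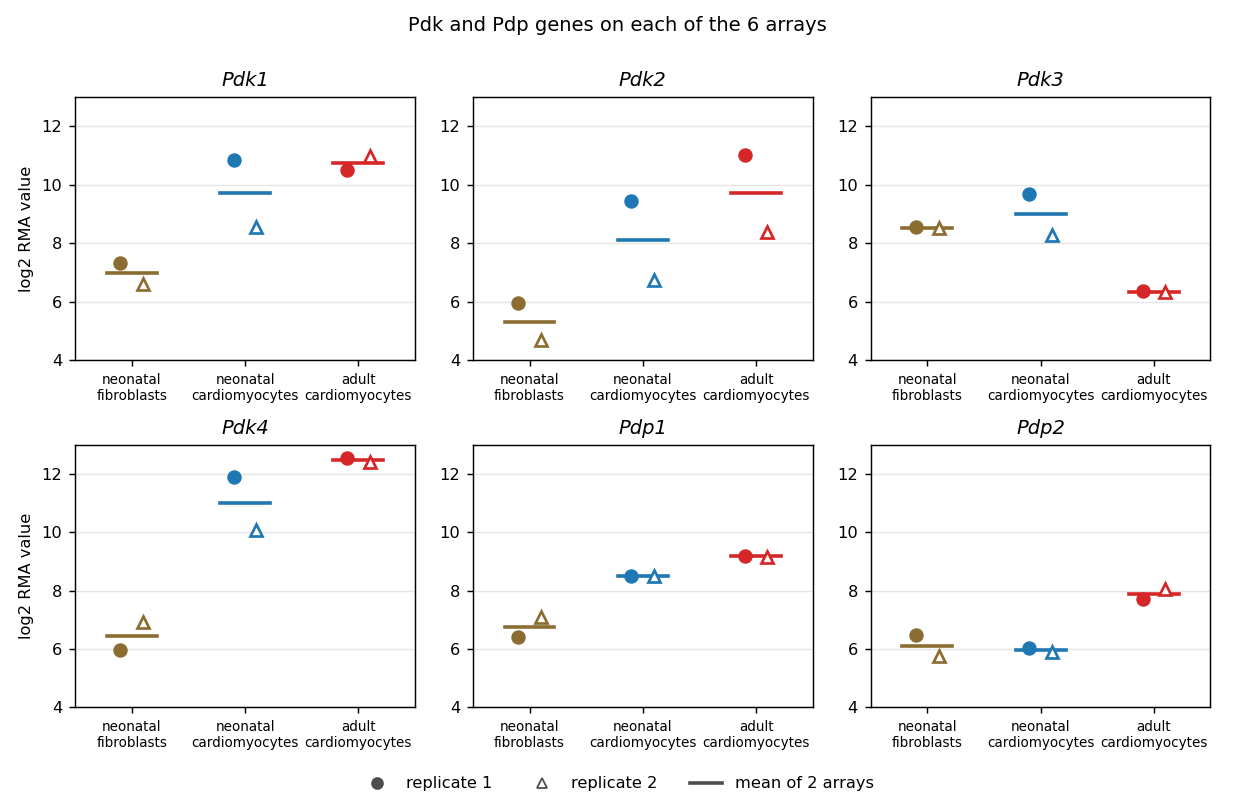
Log2 RMA values of the 4 kinase and 2 phosphatase genes on each array, by group; circles are replicate 1, triangles replicate 2, and bars the mean of the 2 arrays. Pdk4 lies between 5.95 and 6.94 in fibroblasts and between 10.09 and 12.54 in the cardiomyocyte groups, while Pdk3 is lowest in adult cardiomyocytes, at 6.35 and 6.33.

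Pdk4 is the kinase isoform induced by fasting and by fatty acids through PPAR receptors, and it had the largest difference of the family in both comparisons with fibroblasts. Its values were 5.95 and 6.94 in fibroblasts, 11.89 and 10.09 in neonatal cardiomyocytes, and 12.54 and 12.41 in adult cardiomyocytes. The 3 groups did not overlap, and the order was fibroblasts, neonatal and then adult cardiomyocytes. Between adult cardiomyocytes (12.48 ± 0.09) and fibroblasts (6.45 ± 0.70) the log2 difference was 6.03 ± 0.66 (SE), a 65.3-fold higher level (limma adjusted p = 0.00864). Of all genes, 99.9% had a smaller difference. Neonatal cardiomyocytes (10.99 ± 1.27) exceeded fibroblasts by 4.54 ± 0.66 (SE) without passing the threshold (limma adjusted p = 0.0605). The difference of 1.49 ± 0.66 (SE) between adult and neonatal cardiomyocytes did not pass either (limma adjusted p = 0.256; 95% interval −0.18 to 3.16), so these neighbours in the order are not separated beyond their spread. The Pdk4 call between adult cells and fibroblasts was lost without either adult array, with limma adjusted p up to 0.0779 and differences between 5.54 and 6.52 over the 6 single-array removals. Within the neonatal pairs, Pdk4 was lower on cardiomyocyte replicate 2, which had the lower cardiomyocyte marker median, and higher on fibroblast replicate 2, which had the higher one. Other cell type markers differed within these pairs too. From replicate 1 to 2, endothelial medians were 8.95 and 8.15 in neonatal cardiomyocytes, and 6.42 and 7.30 in fibroblasts. Leukocyte medians were 6.75 and 5.25, and 11.84 and 9.07. The part of any of these markers in the result was not tested. Pdk4 is also abundant in fat cells, for which 6 of 8 listed markers were measured. Their summed log2 level was 8.74 and 8.78 in fibroblasts, 12.55 and 9.16 in neonatal cardiomyocytes, and 12.83 and 12.91 in the adult ones. The fat cell markers Adipoq, Lep and Cidec lay between 3.11 and 4.02 on all 6 arrays and Retn between 5.44 and 6.01, while Fabp4, which endothelial cells also express, ranged from 6.79 to 12.75. Pnpla2, a lipase of many tissues, had group means in the same order as Pdk4, at 7.85 and 6.63 in fibroblasts, 9.05 and 7.98 in neonatal cardiomyocytes, and 11.09 and 9.40 in the adult ones. The part of these markers in the Pdk4 result was not tested.

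Pdk2, the most widely expressed kinase isoform, measured 5.94 and 4.69 in fibroblasts, 9.45 and 6.74 in neonatal cardiomyocytes, and 11.03 and 8.40 in adult cardiomyocytes. Both cardiomyocyte groups lay above the fibroblasts without overlap, and the neonatal and adult arrays overlapped. The fibroblast replicate 2 value of 4.69 was below the array medians of 5.6 to 5.67. The mean of the adult cells exceeded that of fibroblasts by 4.40 ± 1.25 (SE) on the log2 scale (21.1-fold, limma adjusted p = 0.0642), which does not pass the threshold. Neonatal cardiomyocytes exceeded fibroblasts by 2.78 ± 1.25 (SE; limma adjusted p = 0.366), and adult exceeded neonatal cells by 1.62 ± 1.25 (SE; limma adjusted p = 0.468). The large SE comes with a gap between replicate numbers that ran the same way in all groups. Replicate 1 was above replicate 2 by 2.72 in neonatal cardiomyocytes, 1.25 in fibroblasts and 2.63 in adult cardiomyocytes. Of all genes, 33 (0.181%) had replicate 1 higher by at least 1.25 in each of the 3 groups. With the replicate number as a block in the model, the SE of Pdk2 became 0.42 and the difference between adult cells and fibroblasts passed (limma adjusted p = 0.0103; range over all alternatives 0.0103 to 0.470). The blocked adjusted p was 0.0757 between the neonatal cell types and 0.109 between adult and neonatal cardiomyocytes.

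**Figure D2:**
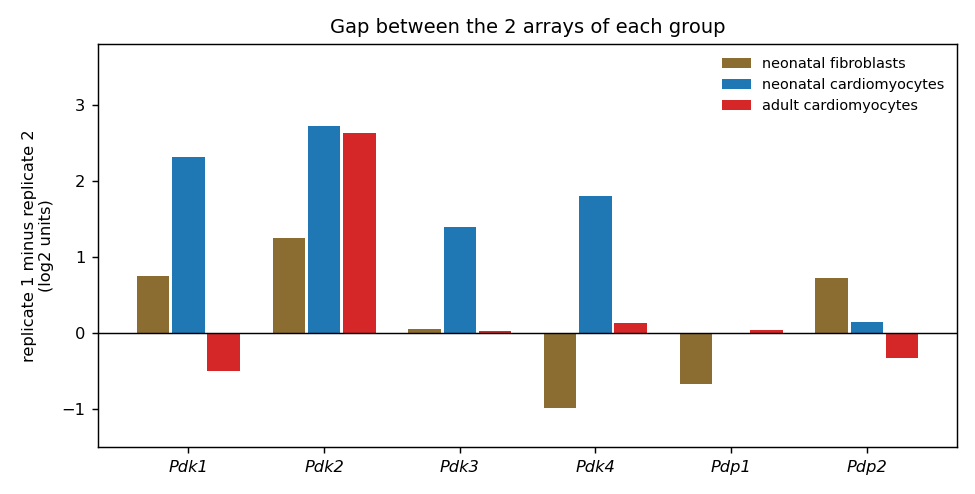
Replicate 1 minus replicate 2 within each group, in log2 units, for each member; bar colours give the group. Pdk2 is the member with a gap above 1 in the same direction in all 3 groups (2.72, 1.25 and 2.63), whereas the Pdk1, Pdk3 and Pdk4 gaps above 1 occur in neonatal cardiomyocytes only.

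Pdk1 is a target of the hypoxia factor HIF-1 that spares oxygen by holding pyruvate out of the mitochondrial cycle; it is not the signalling kinase Pdpk1, which shares the alias. On the probe set used, 1435836_at, it measured 7.34 and 6.59 in fibroblasts, 10.86 and 8.54 in neonatal cardiomyocytes, and 10.50 and 10.99 in adult cardiomyocytes. Both cardiomyocyte groups were above the fibroblasts, and neonatal replicate 1 lay between the adult values while replicate 2 lay 2.32 below replicate 1. Adult cardiomyocytes exceeded fibroblasts by 3.78 ± 0.79 (SE), a 13.7-fold rise (limma adjusted p = 0.0306). The neonatal cell types differed by 2.74 ± 0.79 (SE; limma adjusted p = 0.188) and the cardiomyocyte ages by 1.04 ± 0.79 (SE; limma adjusted p = 0.460). The rise depended on the probe set. On 1423747_a_at the same difference was 2.15 (limma adjusted p = 0.195), on 1423748_at it was 2.0 (0.172) and on the dim 1434974_at it was 0.63 (0.373). On those 3 probe sets neonatal cardiomyocyte replicate 2 lay below fibroblast replicate 1, at 7.73 against 8.11, 7.45 against 7.81 and 3.78 against 4.05. Each of the 4 probe sets had its highest value in the cardiomyocyte groups and its lowest on fibroblast replicate 2. Without either fibroblast or either adult array the Pdk1 call ended (differences between 3.41 and 4.15, limma adjusted p up to 0.138).

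**Figure D3:**
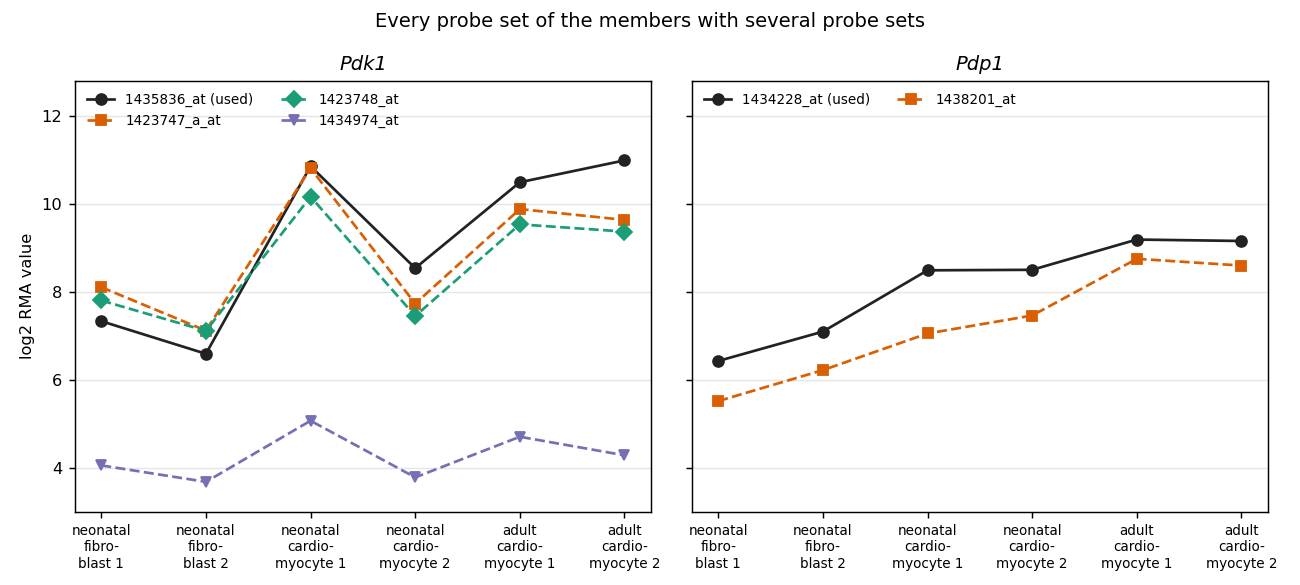
Log2 RMA values of all 4 Pdk1 and both Pdp1 probe sets on the 6 arrays; solid lines mark the probe set used, and lines join the values of a probe set without implying an order. The used Pdk1 probe set has the widest step from fibroblasts to adult cardiomyocytes (3.78 against 2.15, 2.0 and 0.63), and both Pdp1 probe sets are lowest in fibroblasts.

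Pdk3, an isoform of narrow tissue range that acts even at high pyruvate, was the member that ran the other way. Its values were 8.55 and 8.50 in fibroblasts, 9.68 and 8.29 in neonatal cardiomyocytes, and 6.35 and 6.33 in adult cardiomyocytes. The adult arrays lay below all 4 neonatal arrays, and the neonatal groups overlapped. Between adult cardiomyocytes and fibroblasts Pdk3 fell by 2.19 on the log2 scale (SE 0.46, limma adjusted p = 0.0315). Between adult and neonatal cardiomyocytes the difference was −2.65 ± 0.46 (SE), 6.27-fold lower in adult cells, and missed the threshold (limma adjusted p = 0.0617). The neonatal cell types differed by 0.46 (95% interval −0.71 to 1.63; limma adjusted p = 0.734), and the sign turned to −0.24 without neonatal cardiomyocyte replicate 1. Without either fibroblast or either adult array the fall against fibroblasts was not called, with limma adjusted p up to 0.153 and a difference between −2.21 and −2.16. The log2 differences of Pdk4 and Pdk3 between adult and neonatal cardiomyocytes were thus 4.13 units apart, and those between adult cardiomyocytes and fibroblasts 8.22 units apart.

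Among the phosphatases, Pdp1 is the calcium-stimulated enzyme of muscle. It measured 6.43 and 7.10 in fibroblasts, 8.49 and 8.50 in neonatal cardiomyocytes, and 9.19 and 9.16 in adult cardiomyocytes. The groups did not overlap and the 2 adult arrays differed by 0.03. Pdp1 rose by 2.41 ± 0.26 (SE) from fibroblasts to adult cardiomyocytes (5.33-fold, limma adjusted p = 0.00853). The difference of 1.74 ± 0.26 (SE) between the neonatal cell types did not pass (limma adjusted p = 0.0629), nor did that of 0.68 ± 0.26 (SE) between the cardiomyocyte ages (limma adjusted p = 0.211). The other Pdp1 probe set, 1438201_at, gave differences of 2.81, 1.39 and 1.42 for the same comparisons, with limma adjusted p of 0.00852, 0.108 and 0.0840. Without either adult array the Pdp1 call ended (differences between 2.08 and 2.75, limma adjusted p up to 0.0747).

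Pdp2, the phosphatase that does not need calcium, was the sole member to pass between the cardiomyocyte ages. It measured 6.48 and 5.76 in fibroblasts, 6.02 and 5.88 in neonatal cardiomyocytes, and 7.73 and 8.05 in adult cardiomyocytes. Both adult arrays lay above all 4 neonatal arrays, which overlapped between cell types. The neonatal values, from 5.76 to 6.48, were close to the array medians of 5.6 to 5.67, and no detection call comes with them. Pdp2 rose from 5.95 ± 0.10 in neonatal to 7.89 ± 0.23 in adult cardiomyocytes, a difference of 1.94 ± 0.29 (SE) or 3.83-fold (limma adjusted p = 0.0480). It also rose by 1.77 ± 0.29 (SE) relative to fibroblasts (3.42-fold, limma adjusted p = 0.0182). The neonatal cell types differed by −0.16 (95% interval −0.91 to 0.58; limma adjusted p = 0.881). The call between the ages ended in the replicate block (limma adjusted p = 0.0526; range over all alternatives 0.0353 to 0.219) and without any single array of the 6, while the difference stayed between 1.78 and 2.10 on those removals. Against fibroblasts the call was lost without either adult array (limma adjusted p up to 0.0926, differences between 1.41 and 2.13 over single-array removals).

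**Figure D4:**
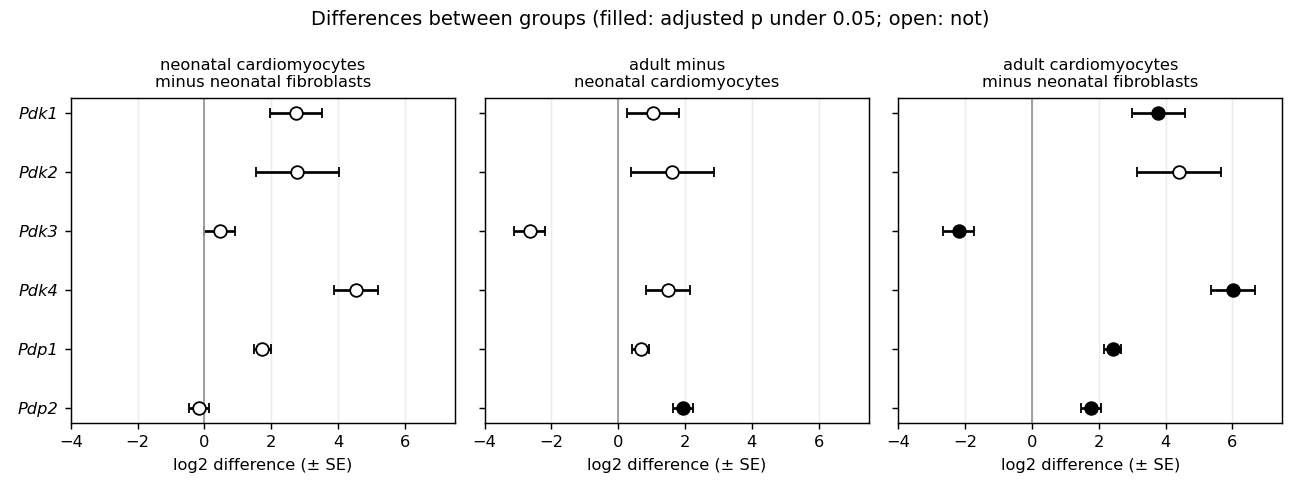
Log2 differences (± SE) of the 6 members in the 3 comparisons; filled points have a limma adjusted p under 0.05 over all genes. The 1 filled point between the cardiomyocyte ages is Pdp2 (1.94), and Pdk3 is the one member left of 0 by more than its SE, at −2.65 and −2.19.

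Counted over the family, 0 of 6 members passed in limma between neonatal cardiomyocytes and fibroblasts, where 0.676% of all genes rose and 0.143% fell. At unadjusted p under 0.05 in limma there were 3 members (Pdk1, Pdk4 and Pdp1), against 16.3% of all genes. In that comparison 5 members had higher means in cardiomyocytes, and the median difference was 2.24 against −0.02 for all genes. Arrays did not overlap for 4 members, against 45.4% of genes. Between adult and neonatal cardiomyocytes 1 member rose and 0 fell in limma, against 1.08% and 1.22% of genes, and 3 members were under an unadjusted p of 0.05 against 22.8% of genes. Of the genes called there, 46.9% were higher in adult cells, and 57.0% after a further quantile normalization. The members' median was 1.27 against 0.09 for all genes, and 4 did not overlap against 57.7%. Between adult cardiomyocytes and fibroblasts 4 members rose and 1 fell, against 10.1% and 11.0% of genes, with a median of 3.10 against 0.09. Arrays of all 6 members were apart in that comparison, as were those of 68.0% of genes. The comparisons share arrays and are not independent of each other.

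These counts depended on single arrays. Without adult replicate 1 or adult replicate 2, 0 members passed between adult cells and fibroblasts in limma, with 5 and 6 of them at unadjusted p under 0.05. Over all genes 0 and 350 were called in those fits. Without fibroblast replicate 1 or replicate 2, 3 members passed, with 1083 and 1941 of all 18193 genes called. With the groups that the titles give, all 6 differences between the neonatal cell types changed sign, and 0 members passed in any comparison.

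The rest of the pyruvate dehydrogenase pathway was measured through 7 genes: the E1 subunits Pdha1 and Pdhb, the E2 subunit Dlat, the E3 subunit Dld, the binding protein Pdhx, the phosphatase regulator Pdpr and the pyruvate carrier Mpc1. All 7 had higher means in neonatal cardiomyocytes than in fibroblasts (median 1.67), 1 of them called, and all 7 rose from fibroblasts to adult cardiomyocytes (median 2.50). Pdhx, which anchors E3 to the core, measured 7.61 and 7.81 in fibroblasts, 9.70 and 9.33 in neonatal cardiomyocytes, and 10.47 and 10.23 in the adult ones. It rose between the neonatal cell types by 1.80 ± 0.22 (SE; limma adjusted p = 0.0459, and 0.0602 in the replicate block). Mpc1, a subunit of the carrier that brings pyruvate into mitochondria, was 2.50 ± 0.27 (SE) higher in adult cardiomyocytes than in fibroblasts (limma adjusted p = 0.00864). Between the cardiomyocyte ages all 7 had higher means in adult cells (median 0.84, range 0.69 to 1.11), 0 were called in limma and 6 were at unadjusted p under 0.05. The Pdhx call between the neonatal cell types was lost, with every other call of that comparison, when replicate 1 of either neonatal group or any adult array was left out (limma had 1909 to 2532 genes at unadjusted p under 0.05). It was also lost after a further quantile normalization and with the mean of probe sets, where 131 and 59 genes were called. Of the 7 rises against fibroblasts, 0 were called without adult replicate 1, 1 without adult replicate 2 and 4 without fibroblast replicate 1. These 7 genes, with the phosphatase regulator and the carrier among them, lay in a narrower band of differences (1.71 to 2.81 against fibroblasts) than the 6 members (−2.19 to 6.03).

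**Figure D5:**
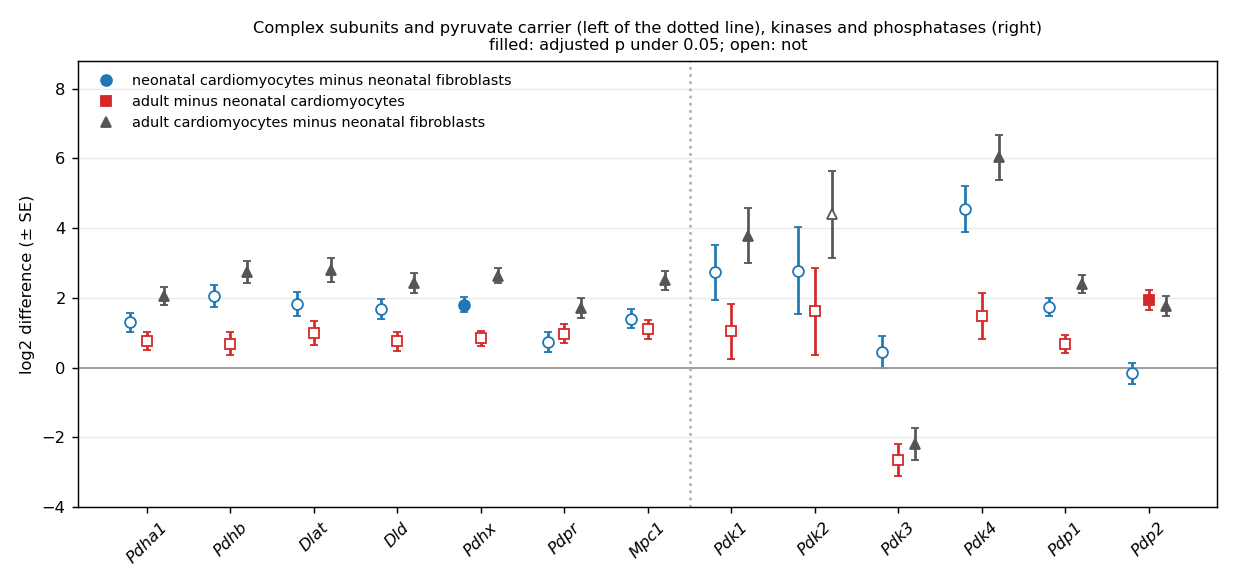
Log2 differences (± SE) in the 3 comparisons for 7 genes of the complex, its phosphatase regulator and the pyruvate carrier, and for the 6 kinases and phosphatases; filled symbols have a limma adjusted p under 0.05. The 7 genes on the left lie between 0.69 and 2.81 in every comparison, whereas the members on the right range from −2.65 to 6.03.

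A related kinase and phosphatase pair, Bckdk and Ppm1k, controls the branched-chain keto acid dehydrogenase. Bckdk differed by 0.85 ± 0.23 (SE) between adult cardiomyocytes and fibroblasts (limma adjusted p = 0.0570, and 0.0491 in the replicate block), and Ppm1k rose by 3.71 ± 0.57 (SE; limma adjusted p = 0.0154). In the list of 7 genes with the branched-chain and oxoglutarate dehydrogenases, 6 rose against fibroblasts, and Bckdha alone rose between the cardiomyocyte ages, by 2.52 ± 0.23 (SE; limma adjusted p = 0.0223). Medians of this list were 1.26 between the neonatal cell types, 1.47 between the ages and 2.73 against fibroblasts. The Bckdha call was lost without neonatal cardiomyocyte replicate 2 or either adult array. Those 6 rises became 0 without adult replicate 1, 1 without adult replicate 2, 2 without fibroblast replicate 1 and 3 without fibroblast replicate 2.

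Mitochondrial calcium, which stimulates Pdp1, depends on 7 measured genes of uptake and release. Of them 0 were called between the neonatal cell types or between the ages in limma (2 and 1 at unadjusted p under 0.05). Against fibroblasts Mcur1 rose by 1.54 and Letm1 by 1.51, Slc8b1 fell by 0.99, and the uniporter Mcu differed by −0.46 (limma adjusted p = 0.196). Of 6 cofactor genes, the lipoate genes Lias (1.00), Lipt1 (0.98) and Mcat (1.28) rose against fibroblasts. Lipt1 missed the threshold in the replicate block (limma adjusted p = 0.0510 against 0.0491). Here too 0 were called in the other 2 comparisons in limma, with 2 at unadjusted p under 0.05 in each. The calls of both lists against fibroblasts were lost without either adult array or fibroblast replicate 1, and without fibroblast replicate 2 each list had 1.

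The list of receptors and factors known to act on Pdk genes held 21 measured genes. Ppara, the fatty acid receptor that induces Pdk4, measured 4.96 and 5.50 in fibroblasts, 8.12 and 7.60 in neonatal cardiomyocytes, and 9.93 and 9.86 in adult cardiomyocytes. Its groups did not overlap, and it rose by 2.63 between the neonatal cell types (limma adjusted p = 0.0424) and by 2.04 between the ages (0.0408). In the replicate block these adjusted p became 0.0595 and 0.0510. The estrogen-related receptor gene Esrrg rose by 4.30 and the coactivator gene Ppargc1b by 3.83 between the neonatal cell types (limma adjusted p = 0.0441 and 0.0424, in the block 0.0619 and 0.0595). The related coactivator gene Ppargc1a had the largest difference of the list there, 5.75, and was not called. Its fibroblast values were 3.93 and 6.79. Between the ages Esrrg differed by 0.50 and Ppargc1b by −0.04, neither called. Rxrg, a partner receptor of PPARs, measured 5.44 and 5.48 in neonatal cardiomyocytes and 9.32 and 8.75 in the adult ones, a rise of 3.58 ± 0.24 (SE; limma adjusted p = 0.0166). Over all genes 0.676% rose between the neonatal cell types, 1.08% between the ages and 10.1% against fibroblasts, where 11.0% fell. Over the 21 genes of this list 3 rose between the neonatal cell types (median 0.28) and 2 between the ages (median 0.37). Against fibroblasts 7 of them rose and 1 fell (median 0.85). The gene that fell was Hif1a, by 1.22. In the replicate block 9 rose against fibroblasts, adding Esrrb (limma adjusted p = 0.0397 against 0.0920) and the hypoxia factor gene Epas1 (0.0378 against 0.147). Epas1 also passed between the ages in the block (0.0343 against 0.0684). Without adult replicate 1 none of the 21 was called against fibroblasts, and without adult replicate 2, 2 were; without fibroblast replicate 1, 5 rose and 0 fell. Between the ages, 0 of the 21 were called without neonatal cardiomyocyte replicate 2 or either adult array, and 1 without any of the others. None were called between the neonatal cell types without 4 of the 6 arrays, the exceptions being both neonatal replicate 2 arrays.

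Pdk4 belongs among PPAR target genes, and 22 others of fatty acid use were measured. Vldlr, a lipoprotein receptor, was the 1 called between the neonatal cell types (1.66), and Ech1 (2.59) and Decr1 (1.83), enzymes of unsaturated fat oxidation, were those called between the ages. In the replicate block the last pair had limma adjusted p of 0.0542 and 0.0534, and Vldlr 0.0595, while Cpt2 passed between the ages (0.0459 against 0.0548). Against fibroblasts 15 rose, with Plin5, a lipid droplet protein, at 5.78 and the fatty acid binding protein Fabp3 at 4.87, and the lipid droplet gene Plin2 fell by 0.86. In the block Ucp3 also passed there (limma adjusted p = 0.0282 against 0.0784). List medians were 1.63, 1.23 and 2.60 in the 3 comparisons, and the 15 rises became 0 without adult replicate 1 and 1 without adult replicate 2. The Vldlr call was lost without replicate 1 of either neonatal group or any adult array, and those between the ages without any array but neonatal cardiomyocyte replicate 1.

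Pdk1 belongs among HIF-1 targets, of which 19 others were measured. In limma 0 were called between the neonatal cell types, with 7 at unadjusted p under 0.05. Between the ages the oxygen sensor gene Egln1 rose by 1.85 and the repressor gene Bhlhe40 by 2.41. Against fibroblasts 6 rose, among them Bnip3 (2.95) and Egln1 (2.75), and Adm (−4.26) and Ero1a (−2.14) fell. In the replicate block the hexokinase gene Hk2 also passed between the ages (limma adjusted p = 0.0422 against 0.0586), and the angiogenic factor gene Vegfa against fibroblasts (0.0158 against 0.0654). The list medians of 0.31, 0.31 and 0.30 lay closer to those of all genes (−0.02, 0.09 and 0.09) than the medians of the complex did. Those 6 rises and 2 falls became 0 and 0 without adult replicate 1, and 1 and 0 without adult replicate 2. They became 3 and 0 without fibroblast replicate 1, and 3 and 1 without replicate 2. Between the ages, 0 of the 19 were called without neonatal cardiomyocyte replicate 2 or either adult array, and 1 without any other.

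The genes whose pattern was most like each member were taken by Pearson correlation over the 6 arrays, among 6833 genes with an SD of at least 0.5. These arrays fall into 3 groups, and their cell composition differs between and within groups, so high values are common and carry no test. For Pdk4 the closest were Atp5j (0.999), a subunit of ATP synthase, Pdhb (0.999), the E1 beta subunit of the complex Pdk4 inhibits, and Frmd5 (0.998), and 7.49% of the genes reached 0.95. For Pdp1 they were Gpc1 (0.999), Ift81 (0.999) and Asb12 (0.998), with 7.23% at 0.95 or more. For Pdk3 they were Gas2l3 (0.994), which acts in cytokinesis, Zcchc3 (0.994) and Cdc25b (0.992), an activator of mitotic kinases, with 1.23%. For Pdp2 they were the cytokine gene Ctf1 (0.994), Bhlhe40 (0.992) and 0610040J01Rik (0.988), with 1.01%. For Pdk2 they were Fastk (0.997), the mitochondrial adenylate kinase Ak3 (0.991) and the mitochondrial thioredoxin Txn2 (0.990), with 1.3% at 0.95 or more, and these 3 measured higher on replicate 1 than on replicate 2 in each group. For Pdk1 they were Kank3 (0.998), the sodium pump subunit Atp1b2 (0.992) and Malt1 (0.991), with 2.31%.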

How the data were processed

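The deposited table holds log2 expression values of 45101 probe sets on 6 arrays, made with RMA per the submitters' processing notes; its version, a genome build and whether the arrays were processed together are not given in the sources used here. The platform's annotation in GEO covers 34945 of them with a single gene and 932 with several, leaving 9160 unnamed here and 64 controls. The RefSeq gene table (GRCm38.p6) changed 0 symbols. Groups followed the source name. A linear model with 3 group means was fitted by lmFit and eBayes to all 18193 genes (limma 3.58.1 under R 4.3.3), two-sided, at 3 residual and 2.18 prior degrees of freedom. The fit was also run on simulated data with differences of known size. The simulated noise was independent between arrays, so that run does not cover deviations shared by replicate number. Array medians lay between 5.6 and 5.67; no detection call or depth comes with RMA values, and the number of arrays limits precision.

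Replicate numbers recur in the groups, and deviations of same-numbered arrays correlated at 0.183 to 0.268 over genes, so the fit with a replicate block is given where it changes the call of a member or of a pathway gene. The named genes were the 6 members, the genes of 7 pathway lists, 9 marker lists and the 3 genes most like each member. Members and lists were chosen with earlier results of these data known. List genes without a probe set of their own, such as Mpc2 or Cpt1b, were not analysed here. Alternatives covered grouping, array removal, probe set choice, a filter on dim genes (a value of 6 on 2 arrays, which all 6 members passed), normalization, the variance model and the groups fitted.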

Additional observations from a re-analysis of the deposited data

How the results depend on the processing

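Each member difference was recomputed under 17 alternatives and on the other probe sets, 318 values in all. Of these, 306 kept their direction and 253 also their side of the threshold, while 40 lost and 13 gained a call; the cause was not tested. With the titles' groups the differences between the neonatal cell types turned to −0.79 for Pdk1, −0.73 for Pdk2, −0.67 for Pdk3, −1.39 for Pdk4, −0.33 for Pdp1 and 0.29 for Pdp2. Without both neonatal replicate 1 arrays Pdk3 turned to −0.21 and Pdp2 to 0.13, and on leaving out 1 array they ranged from −0.24 to 1.16 and from −0.52 to 0.20. Without neonatal cardiomyocyte replicate 2, or both neonatal replicate 2 arrays (a choice made after seeing the data), Pdk1 turned to −0.12 between the ages (range on leaving out 1 array −0.12 to 2.20). Genes called between the neonatal cell types were 149, and 0 to 437 on leaving out 1 array. They were 0 with the titles' groups, without both neonatal replicate 1 or both replicate 2 arrays, with the probe set of largest SD, in the replicate block or with only the 2 groups compared (limma passed 232, 1461, 3509, 2770, 3678 and 2532 at unadjusted p under 0.05), 59 with the mean of probe sets, 358 without dim genes and 248 with an intensity trend. Between the ages 418 became 0 to 164 on leaving out 1 array, 114 with the titles' groups, 164 with only the 2 groups compared, and 0 without both neonatal replicate 1 or both replicate 2 arrays (3845 and 2559 at unadjusted p under 0.05). Against fibroblasts 3829 became 0 to 3823 on leaving out 1 array, 137 with the titles' groups, 717 without both neonatal replicate 1 arrays and 1574 without both replicate 2 arrays. Members called between the neonatal cell types rose from 0 to 2 without dim genes and 1 with the trend, and were 0 to 2 on leaving out 1 array. Between the ages the 1 call became 2 without dim genes, and 0 with the titles' groups, without both neonatal replicate 1 or both replicate 2 arrays, in the replicate block, with the probe set of largest SD, with median centring, with only the 2 groups compared and on leaving out any 1 array; limma then had 2 to 4 members at unadjusted p under 0.05. Against fibroblasts the 5 calls became 0 with the titles' groups, 2 without both neonatal replicate 1 arrays and 0 to 6 on leaving out 1 array. The replicate block changed the call of Pdk2 against fibroblasts and of Pdp2 between the ages, and of no other member. With 2 arrays a group, the spread between arrays limits what can be called.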
